A study of Mus musculus with 6 samples.

Results

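Glycolysis and the response to low oxygen were followed through 36 genes: 14 enzymes of the core pathway from hexokinase to lactate dehydrogenase, 4 glucose and lactate transporters, 3 regulators of the flux through the pathway, 6 genes of the oxygen-sensing HIF pathway and 9 classical HIF targets. They were chosen by symbol from a written list, made with earlier results of these data known. All 36 were found among the 30386 genes of the table. The samples were back skin epidermis of mouse embryos at E18.5, parted from the dermis with Dispase and sequenced from the 3' ends of its mRNAs, in 3 wild-type libraries (WT) and 3 libraries of the genotype p63alphaKO, named for the alpha forms of the epidermal transcription factor p63. The sources used here do not give the strain, sex or litter or how the allele was made, and no label says that each library came from an embryo of its own, so p-values measure only the spread between these libraries. By its title, the study concerns the change of p63 isoforms as a means against AEC syndrome, a disease of p63 mutations, and whether the epidermis tolerates it; p63alphaKO against WT is its 1 comparison in these libraries.

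Glycolysis splits glucose into pyruvate, and lactate dehydrogenase turns pyruvate into lactate, which leaves the cell through monocarboxylate transporters. The epidermis has no blood vessels of its own, and keratinocytes are known for a high rate of glycolysis. The transcription factor HIF joins an oxygen-labile alpha subunit (Hif1a) to a stable partner (Arnt). In normal oxygen the Egln prolyl hydroxylases mark the alpha subunit for capture by Vhl and destruction; in low oxygen it escapes, binds short DNA elements and switches on glycolytic genes, angiogenic factors and, as feedback, Egln1 and Egln3 themselves.

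The libraries held between 2564407 and 4474764 reads. Levels are in CPM, the reads of a gene scaled to a common library total, and means have their SD (n = 3). A log2 fold change compares p63alphaKO with WT on values of log2(CPM + 1), and it understates the change of low genes. Tests used limma on 7464 genes averaging 10 CPM or more, and a gene was called at a Benjamini-Hochberg adjusted p under 0.05 over all of these. It called 123 genes, 35 higher and 88 lower, so that 71.5% of the calls were lower, against 58.0% after TMM scaling and 48.1% after upper quartile scaling. Keratinocyte markers were abundant throughout, with a sum over 8 genes between 110312 and 119602 CPM. Markers of other cells also differed between the groups: those of fibroblasts and dermis summed to 2267 to 5155 CPM in WT, against 388 to 721 CPM in p63alphaKO, those of skeletal muscle to 454 to 3003 and 64.4 to 123 CPM, and those of red blood cells to 1903 to 3441 and 559 to 1769 CPM. All 10 fibroblast and dermis markers, 9 of 12 muscle markers and 4 of 8 red cell markers lay lower in every p63alphaKO library than in any WT library. Of all tested genes 13.4% lay lower in this way and 7.60% higher. The red cell genes Hbb-y and Slc4a1 and the muscle gene Actn2 averaged under 1 CPM. Endothelial markers summed to 12.6 to 42.5 CPM in WT, against 2.39 to 4.95 CPM in p63alphaKO, with 3 of 6 lower in every p63alphaKO library. Immune markers summed to 18.1 to 25.2 and 6.85 to 17.5 CPM, with 2 of 8 lower and 1 higher. No endothelial or immune marker averaged 10 CPM, so these were not tested. Melanocyte markers summed to 194 to 310 CPM in WT, against 321 to 455 CPM in p63alphaKO; 1 of these 6, Dct, was higher in every p63alphaKO library (191 and 317 CPM on average), and none was called. The part of these cells in the results below was not tested, and fewer cells of a type cannot be told apart from less RNA per cell in such bulk samples.

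In p63alphaKO epidermis the glycolytic activator Pfkfb3 and the oxygen sensor Egln3 rose. None of the 14 enzymes of the pathway itself was called, where the share over all tested genes was 1.65%. Of the 36 genes 33 reached the minimum level and 2 were called, both higher, or 6.06% of the 33 against 1.65% of all tested genes in either direction and 0.469% in the higher direction. No gene was called lower by limma, against 1.18% of all tested genes. At an unadjusted p under 0.05 in limma, 8 of the 33 were higher (24.2%, against 6.03% of all tested genes). At the same level 3 were lower (9.09%, against 9.59%). Like limma, edgeR and DESeq2 called 0 lower, and of all tested genes they called 1.1% and 4.25% in either direction. The groups did not overlap for 11 of the 33 genes (33.3%), against 21.0% of all tested genes: 8 lay higher in every p63alphaKO library, against 7.60% of all tested genes, and 3 lower, against 13.4%. The median log2 fold change was 0.060 over the 33 genes and 0.057 over all 36, with -0.085 over all tested genes. The members were chosen with earlier results known, so these shares and medians describe the list and do not test it. Among the 33, Slc16a3 and Pgk1 had a WT mean under the minimum, and Pfkm and Ankrd37 a p63alphaKO mean under it, so each passed through the group where it was higher.

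**Figure D1:**
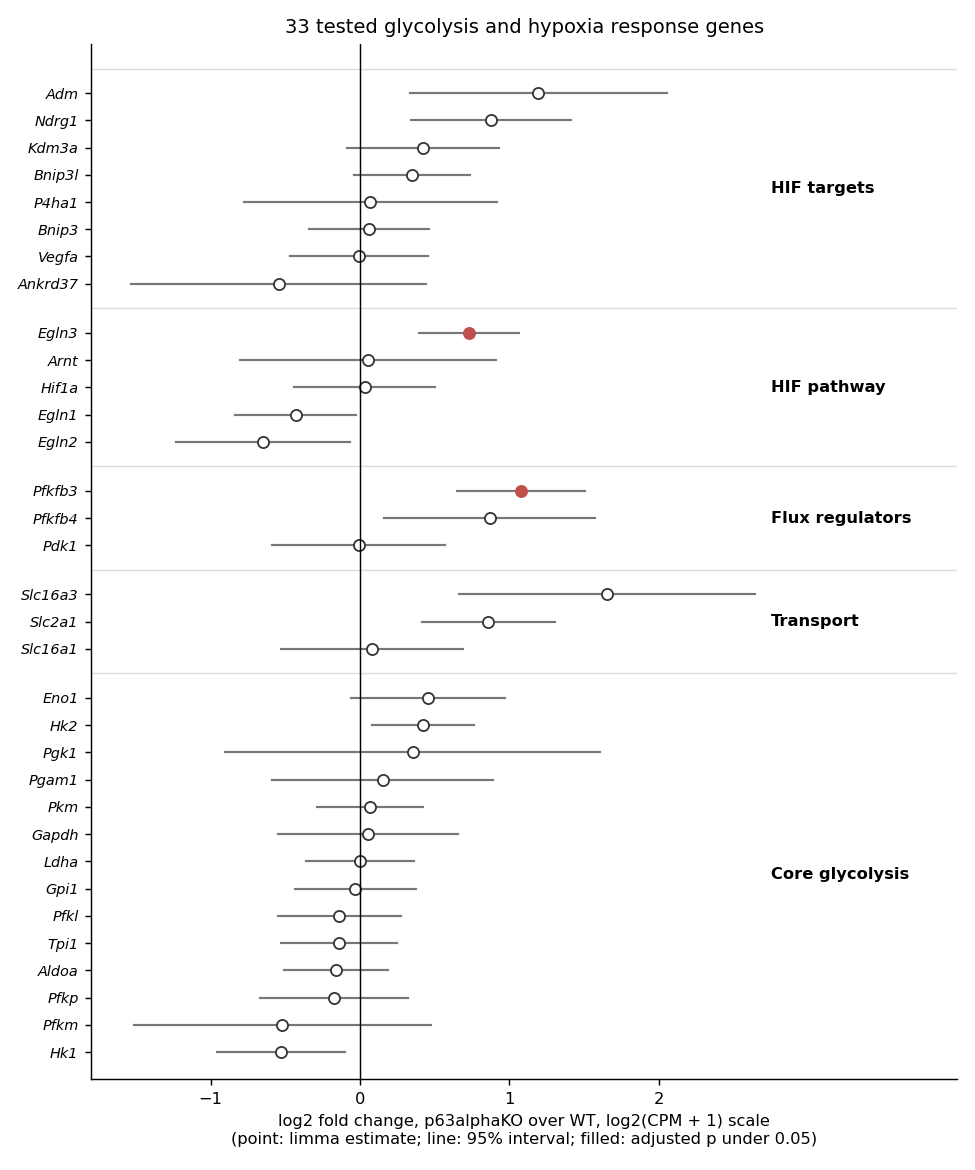
Log2 fold change (p63alphaKO relative to WT, from log2(CPM + 1)) of the 33 tested genes in their 5 groups, with 95% intervals from limma; filled points were called. Pfkfb3 and Egln3 are the called genes, and the 14 core enzymes lie between -0.53 and 0.46 around 0.

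Pfkfb3 makes fructose 2,6-bisphosphate, the strongest known activator of phosphofructokinase, and so sets the pace of glycolysis. It was at 41.7, 34.6 and 36.5 CPM in WT replicates 1, 2 and 3 and at 77.9, 85.6 and 77.6 CPM in p63alphaKO replicates 1, 2 and 3. Every p63alphaKO library was far above every WT library, and the spread within each group was small. Pfkfb3 (chromosome 2, 11471433 to 11554077, minus strand, GRCm38/mm10) rose by a log2 fold change of 1.08 (SE 0.20, 95% interval 0.65 to 1.505, adjusted p = 0.0133), or 2.14-fold between the means. Its value lay between 1.005 and 1.21 over the 16 other ways of processing the data. Pfkfb3 was no longer called when p63alphaKO replicate 1, 2 or 3 was left out, where the adjusted p was 0.0703, 0.0880 or 0.0624.

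Egln3 encodes the prolyl hydroxylase that HIF is known to induce strongly, a part of the feedback that limits HIF. It stood at 157, 165 and 151 CPM in the WT libraries and at 259, 255 and 271 CPM in the p63alphaKO libraries. The groups were well apart, with a coefficient of variation of 4.20% in WT and 3.13% in p63alphaKO. Egln3 (chromosome 12, 54178981 to 54203860, minus strand) rose by 0.73 on the log2 scale (SE 0.16, 95% interval 0.39 to 1.07, adjusted p = 0.0313), or 1.66-fold. Leaving out p63alphaKO replicate 1, 2 or 3 ended the call of Egln3 (adjusted p = 0.117, 0.122 and 0.160) at values of 0.74, 0.75 and 0.70.

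**Figure D2:**
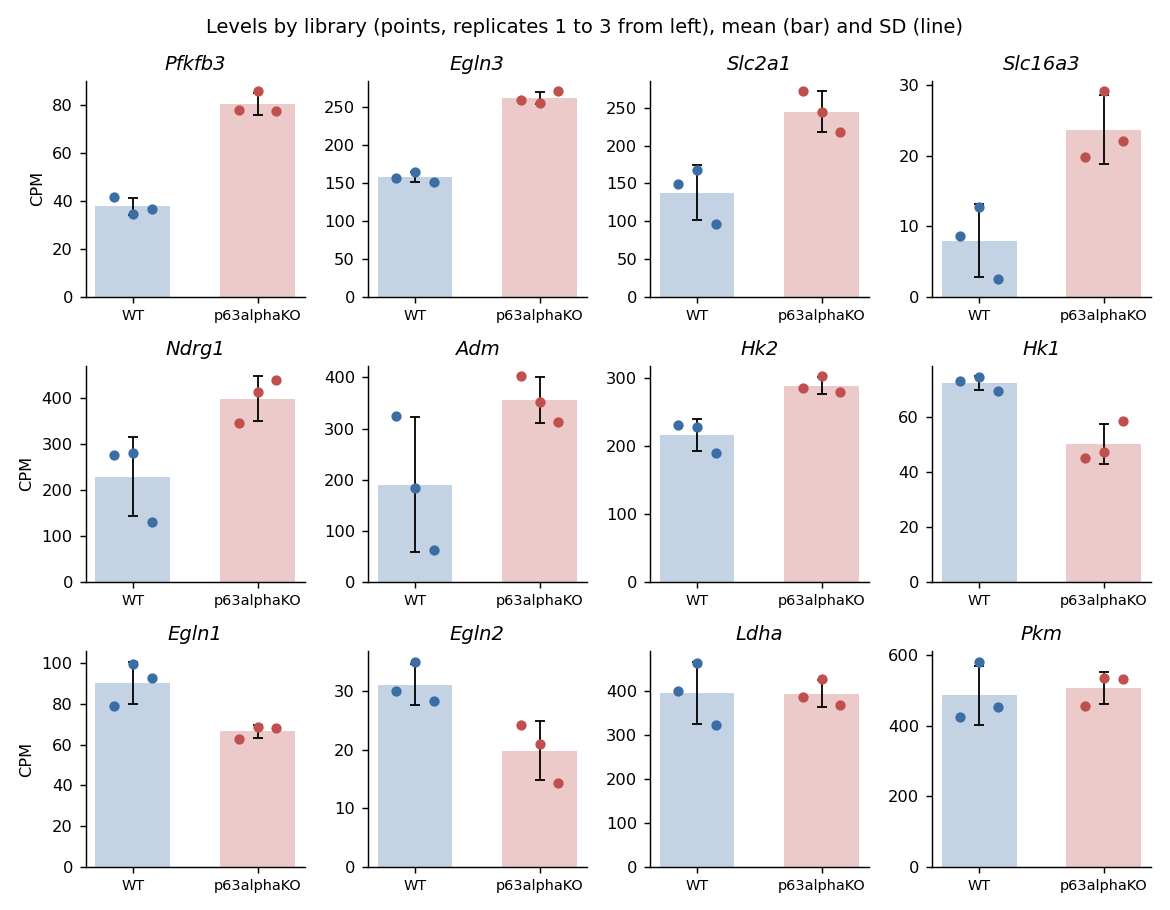
CPM of 12 of the genes in each library (points), with the group mean (bar) and SD (line); n = 3 per group. Pfkfb3 and Egln3 show separate, tight groups, Slc2a1, Slc16a3 and Ndrg1 separate groups with a low WT replicate 3, and Ldha and Pkm overlapping ones.

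HIF binds DNA at a core that reads ACGTG or GCGTG, so the 250 bases before the RefSeq starts (GRCm38.p6) of the 36 genes were read for these letters on both strands. The promoter table held 33 of the 36 genes; Ndrg1, Bnip3l and Slc2a3 are not among them. Of these 33 genes, 30 (90.9%) had at least 1 match before at least 1 start, against 41.5% of the 27025 genes of the table, and 20 (60.6%) had ACGTG, against 4998 of the 27025. Counted by start, 38 of 49 members' promoters (77.6%) and 38.6% of all 32851 held a match. The members were chosen as glycolytic and HIF response genes, so their higher shares describe that choice and are no test. The 27025 genes were not limited to those expressed here. The members' promoters were richer in G and C, with a median of 61.6% against 52.4%, some of the windows of 1 gene overlap, and the palindrome CACGTG counts as a match on each strand. Matches stood before genes that were called and before genes that were not. The sequences below show this for both called genes, for Egln1 as the second feedback hydroxylase, for the transporters Slc2a1 and Slc16a3, and for Ldha, a textbook HIF target with overlapping groups here. Each runs 5′ to 3′ on the gene's strand and ends at the base before the start, and capitals mark the matches.
Egln3, chr12:54203875-54204124, minus strand: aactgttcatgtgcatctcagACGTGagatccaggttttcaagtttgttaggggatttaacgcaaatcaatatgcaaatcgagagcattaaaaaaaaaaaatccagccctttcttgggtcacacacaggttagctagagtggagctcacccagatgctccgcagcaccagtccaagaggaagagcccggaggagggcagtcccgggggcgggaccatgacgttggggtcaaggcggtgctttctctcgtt
Egln1, chr8:124949255-124949504, minus strand: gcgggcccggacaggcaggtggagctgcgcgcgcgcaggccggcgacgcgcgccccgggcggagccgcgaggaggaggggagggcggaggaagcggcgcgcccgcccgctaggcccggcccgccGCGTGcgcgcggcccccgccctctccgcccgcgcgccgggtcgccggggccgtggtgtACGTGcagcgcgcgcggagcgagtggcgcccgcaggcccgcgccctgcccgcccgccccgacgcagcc
Pfkfb3, distal start, chr2:11553930-11554179, minus strand: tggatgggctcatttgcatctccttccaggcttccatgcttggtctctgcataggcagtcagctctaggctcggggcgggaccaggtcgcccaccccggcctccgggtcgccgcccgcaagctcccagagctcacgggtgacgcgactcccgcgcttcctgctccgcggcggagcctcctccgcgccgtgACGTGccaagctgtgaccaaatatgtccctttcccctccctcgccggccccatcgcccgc
Pfkfb3, internal start, chr2:11502091-11502340, minus strand: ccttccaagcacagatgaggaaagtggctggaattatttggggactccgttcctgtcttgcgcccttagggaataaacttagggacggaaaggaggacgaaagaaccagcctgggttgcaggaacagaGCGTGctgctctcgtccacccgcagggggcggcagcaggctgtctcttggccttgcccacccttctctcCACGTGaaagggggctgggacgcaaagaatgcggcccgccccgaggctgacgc
Slc2a1, chr4:119108495-119108744, plus strand: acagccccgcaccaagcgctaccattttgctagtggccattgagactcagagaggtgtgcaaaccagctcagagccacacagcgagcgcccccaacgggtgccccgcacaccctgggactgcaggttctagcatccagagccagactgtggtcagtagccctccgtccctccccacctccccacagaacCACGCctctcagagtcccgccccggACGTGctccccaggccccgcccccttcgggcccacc
Slc16a3, chr11:120948817-120949066, plus strand: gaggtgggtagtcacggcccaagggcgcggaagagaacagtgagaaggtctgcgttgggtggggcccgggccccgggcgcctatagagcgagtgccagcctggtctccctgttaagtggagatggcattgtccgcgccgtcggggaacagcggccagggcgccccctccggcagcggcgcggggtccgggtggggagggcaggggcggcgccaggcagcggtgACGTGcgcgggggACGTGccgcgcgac
Ldha, chr7:46845554-46845803, plus strand: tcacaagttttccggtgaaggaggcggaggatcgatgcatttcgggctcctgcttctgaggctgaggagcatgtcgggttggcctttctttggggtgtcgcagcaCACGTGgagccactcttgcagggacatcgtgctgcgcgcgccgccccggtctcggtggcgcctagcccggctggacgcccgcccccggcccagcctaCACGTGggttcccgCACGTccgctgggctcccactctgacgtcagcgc

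Egln3 held 1 match in this window, which began 229 bases before the start, and Egln1 held 2. Pfkfb3 had an ACGTG before either start, and at the internal one it formed a CACGTG. Slc16a3 carried 2 copies of ACGTG within 27 bases of its start, and Slc2a1 1 ACGTG and 1 GCGTG. Ldha had 5 matches of ACGTG before the start shown, with 2 CACGTG palindromes among them, as many matches as any of the 49 windows. Before its other start (chr7:46846832-46847081) it had 1 GCGTG and no ACGTG. The mRNA of Ldha did not separate the groups. A match is a stretch of letters and no measurement of binding.

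Among the transporters, Slc2a1 encodes GLUT1, the main glucose importer of keratinocytes. It was at 150, 167 and 96.3 CPM in WT, against 272, 245 and 218 CPM in p63alphaKO. The groups did not overlap, and WT replicate 3 was the lowest. The log2 fold change was 0.86 (SE 0.21, 95% interval 0.41 to 1.30), and the adjusted p of 0.0544 missed the threshold. Slc2a1 passed it in 6 of 16 other ways of processing, among them TMM scaling (adjusted p = 0.0409), upper quartile scaling (0.0331), DESeq2 (0.00564) and without WT replicate 2 (0.0323). Exons of Slc2a1 overlap those of Gm12868 on the other strand, and 12 other members overlap such a gene: Hk1, Gpi1, Pfkm, Pfkp, Aldoa, Tpi1, Gapdh, Hif1a, Egln2, Ndrg1, Bnip3 and Ankrd37. The sources do not say whether counting used the strand.

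Slc16a3 encodes MCT4, a lactate exporter of glycolytic cells and a known HIF target. Its levels were 8.57, 12.7 and 2.52 CPM in WT, or 22, 57 and 8 reads, and 19.8, 29.1 and 22.1 CPM in p63alphaKO, or 70, 100 and 74 reads. All p63alphaKO libraries lay above all WT libraries. The log2 fold change was 1.65 (SE 0.46, 95% interval 0.66 to 2.65, adjusted p = 0.0827). It was 1.09 without WT replicate 3 (adjusted p = 0.177), and it was called with DESeq2 (adjusted p = 0.0183) and without WT replicate 2 (0.0398). Slc16a1, or MCT1, which carries lactate in either direction, was at 32.3, 46.4 and 68.0 CPM in WT, against 37.0, 49.5 and 66.5 CPM in p63alphaKO. These ranges all but coincide (log2 fold change 0.082, 95% interval -0.53 to 0.69). Slc2a3, or GLUT3, a neuronal glucose importer, was under the minimum with 1, 6 and 0 reads in WT and 13, 5 and 18 reads in p63alphaKO, so it was not tested. By limma 0 of the 3 tested transporters were called, and 2 (66.7%) were higher at an unadjusted p under 0.05, against 6.03% of all tested genes. Of the 3, edgeR called 0 and DESeq2 called 2, against 1.1% and 4.25% of all tested genes in either direction. Slc16a3 was among the 2 in both counts, and its WT mean of 7.94 CPM was under the minimum. It was thus tested only through its higher p63alphaKO level, and shares of 3 genes are no test of the list.

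Among the core enzymes, none of the 14 enzymes was called by limma, edgeR or DESeq2. These called 1.65%, 1.1% and 4.25% of all tested genes, so 0 of 14 does not set the enzymes apart. Of the 14, 7 had positive and 7 negative log2 fold changes, and the median was -0.014. Their range ran from -0.53 to 0.46. At an unadjusted p under 0.05 in limma, 1 was higher and 1 lower (7.14% each, against 6.03% and 9.59% of all tested genes). Those were the hexokinases, which trap glucose in the cell as its phosphate. Hk1, the isoform found in most tissues, was at 72.9, 74.4 and 69.6 CPM in WT, against 44.9, 47.2 and 58.5 CPM in p63alphaKO (log2 fold change -0.53, 95% interval -0.95 to -0.099, adjusted p = 0.215). Hk2, the inducible isoform and a HIF target, was at 232, 229 and 189 CPM in WT, against 285, 303 and 280 CPM in p63alphaKO (0.42, 95% interval 0.077 to 0.77, adjusted p = 0.215). Neither isoform's groups overlapped, and they differed in opposite directions.

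The ratio of Hk2 to Hk1 within a library does not depend on how libraries are scaled. It was 3.18, 3.08 and 2.72 in WT and 6.36, 6.42 and 4.79 in p63alphaKO, a 1.94-fold difference. Egln3 over Egln1 was at 1.99, 1.66 and 1.64 in WT and 4.14, 3.73 and 3.97 in p63alphaKO (2.25-fold), and Pfkfb3 over the phosphofructokinase Pfkl at 0.423, 0.388 and 0.310 against 0.740, 0.974 and 0.929 (2.36-fold). No test is given, since these were among 7 ratios formed after the values of the genes had been seen. Ldha over Ldhb, the subunits of lactate dehydrogenase, was at 21.0, 20.8 and 25.7 in WT and 17.5, 22.5 and 24.2 in p63alphaKO, with overlap. Exons of Hk1 overlap those of the antisense gene Hk1os.

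None of the other 12 core enzymes had an unadjusted p under 0.05. Aldoa, the aldolase that cleaves the 6-carbon sugar, was at 678, 898 and 663 CPM in WT, against 622, 725 and 644 CPM in p63alphaKO (log2 fold change -0.16, 95% interval -0.51 to 0.19). Eno1, an enolase, had the highest value of the list, with 34.29, 27.91 and 22.04 CPM in WT, against 36.4, 41.6 and 37.0 CPM in p63alphaKO (0.46, 95% interval -0.063 to 0.97, adjusted p = 0.394). Its groups did not overlap, though p63alphaKO replicate 1 was only just above WT replicate 1. Pkm, pyruvate kinase, and Ldha had values of 0.070 (95% interval -0.28 to 0.42) and 0.0030 (-0.36 to 0.36). For these as for Aldoa, the intervals leave out a 1.5-fold difference in either direction. Gpi1, Pfkl, Pfkp and Tpi1 had values of -0.030, -0.14, -0.17 and -0.14, with adjusted p from 0.777 to 0.968.

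Gapdh, Pgk1 and Pgam1, which act one after another below aldolase, had wide intervals. Gapdh was at 110, 79.3 and 45.0 CPM in WT, against 94.9, 72.2 and 64.4 CPM in p63alphaKO (log2 fold change 0.053, 95% interval -0.55 to 0.65). The last 400 bases of its coding transcripts match 113 other annotated genes, 106 of them pseudogenes, at 95% identity or more over at least 100 bases. Only 7 of the 113 are in the table, and their sum did not exceed 0.29 CPM in any library, so the reads that Gapdh shares with its copies are uncertain. With Gapdh, 10 members had such matches, the others being Gpi1, Pfkp, Aldoa, Tpi1, Eno1, Pkm, Ldha, Ndrg1 and Bnip3. Pfkp matched only Pitrm1 and Ndrg1 only Gm2895, and Gm45507 was among the matches of Bnip3. These overlap the member's exons on the other strand and are not copies elsewhere. Ldha matched 6 genes and Pkm 1, all pseudogenes and none in the table, Aldoa matched 2 and Eno1 4. Reads shared with copies are uncertain for these genes too. Pgk1 was at 14.03, 11.6 and 3.15 CPM in WT, against 19.8, 13.4 and 4.47 CPM in p63alphaKO (0.35, 95% interval -0.91 to 1.61). Pgam1 had a value of 0.15 (95% interval -0.59 to 0.89). The interval of Pgk1 is wide enough to hold a 1.5-fold difference in either direction.

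Phosphofructokinase, the committed step, is built from 3 isoforms. Pfkl, the liver form, made up 57.7% to 64.9% of the summed CPM of the 3 genes in WT and 64.4% to 65.8% in p63alphaKO, and Pfkp, the platelet form, 23.7% to 30.2% and 27.1% to 29.0%. Pfkm, the muscle form, was at 9.35, 28.6 and 8.82 CPM in WT, against 9.60, 6.99 and 11.04 CPM in p63alphaKO. WT replicate 2 alone was high. The skeletal muscle markers summed to 3003 CPM in that library and to 461 and 454 CPM in WT replicates 1 and 3. All of these markers but Actn2, Myh3 and Myh8 were highest in WT replicate 2. Myh8 was at 0 CPM there, against 36.6 and 46.9 CPM in WT replicates 1 and 3. The log2 fold change of Pfkm was -0.52 (95% interval -1.51 to 0.47) and -0.0023 without WT replicate 2. Exons of Pfkm overlap those of Senp1 on the other strand.

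Of the flux regulators besides Pfkfb3, the related enzyme Pfkfb4, a HIF target, was at 20.3, 10.3 and 12.0 CPM in WT, against 19.2, 27.4 and 31.9 CPM in p63alphaKO. WT replicate 1 overlapped with p63alphaKO replicate 1, and the log2 fold change of 0.87 (95% interval 0.16 to 1.57) did not pass the test (adjusted p = 0.215). Pdk1, the kinase that keeps pyruvate out of the mitochondria and another HIF target, was at 25.3, 36.2 and 25.8 CPM in WT, against 38.1, 26.8 and 22.7 CPM in p63alphaKO. Its value of -0.0097 (95% interval -0.59 to 0.57) lay in the middle of a wide interval.

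**Figure D3:**
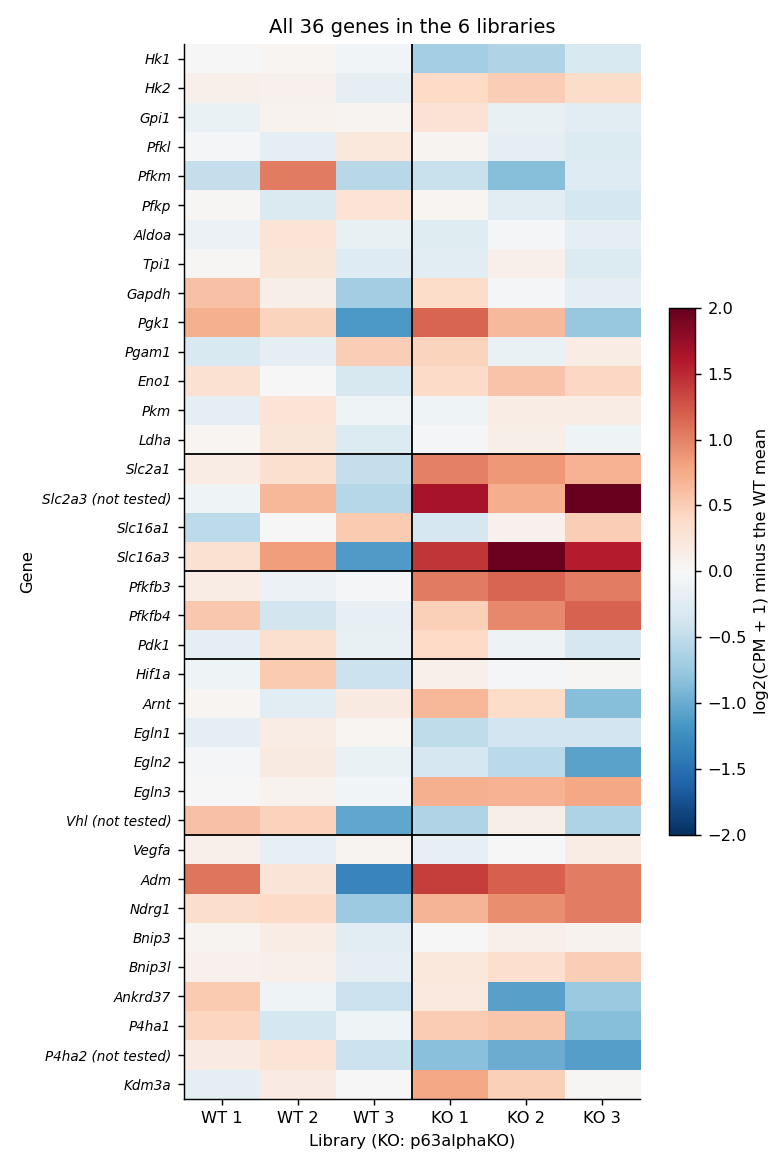
Log2(CPM + 1) of all 36 genes in each of the 6 libraries minus the WT mean, with colour ending at 2 log2 units in either direction; black lines part the 5 groups of genes and the 2 groups of libraries. Pfkfb3, Egln3, Slc2a1, Slc16a3 and Ndrg1 are red in all p63alphaKO libraries, while most core enzymes stay pale and WT replicate 3 is blue for Adm, Ndrg1, Slc16a3 and Pgk1.

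In the HIF pathway, the oxygen-regulated subunit Hif1a was at 125, 191 and 98.2 CPM in WT, against 143, 130 and 135 CPM in p63alphaKO (log2 fold change 0.031, 95% interval -0.44 to 0.50), and its partner Arnt had a value of 0.054 (-0.80 to 0.91). Hif1a is controlled mainly through its protein, which was not measured. The 3 hydroxylases lay on different sides of 0. Egln1, the main oxygen sensor of most cells, was at 78.7, 99.4 and 92.6 CPM in WT, against 62.7, 68.4 and 68.3 CPM in p63alphaKO (-0.43, 95% interval -0.83 to -0.025, adjusted p = 0.294). Egln2, which HIF is not known to induce, was at 30, 35.1 and 28.3 CPM in WT, against 24.3, 21.0 and 14.3 CPM in p63alphaKO (-0.65, 95% interval -1.23 to -0.064, adjusted p = 0.264). So all WT libraries lay above all p63alphaKO libraries for Egln1 and Egln2, without a call, and below them for Egln3. Summed fibroblast and dermis markers were lower in p63alphaKO in the same way as Hk1, Egln1 and Egln2, and their part in those values was not tested. Vhl, the ubiquitin ligase subunit, was under the minimum, at 10.9, 9.82 and 2.83 CPM in WT, against 4.23, 7.57 and 4.18 CPM in p63alphaKO, and was not tested. Exons of Egln2 overlap those of Cyp2t4 and exons of Hif1a those of Gm15283 on the other strand.

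Of the 9 HIF targets 8 were tested, 6 (75.0%) with positive and 2 with negative values, where 40.2% of all tested genes were positive. By limma 0 were called, and 2 (25.0%) were higher at an unadjusted p under 0.05, against 6.03% of all tested genes. Of the 8, edgeR called 0 and DESeq2 called 1, against 1.1% and 4.25% of all tested genes in either direction. Ndrg1, a stress-induced gene of differentiating epithelia, was at 275, 280 and 129 CPM in WT, against 344, 412 and 438 CPM in p63alphaKO. The groups did not overlap, with WT replicate 3 well below the other 2. Its log2 fold change was 0.88 (95% interval 0.34 to 1.41, adjusted p = 0.0869), 0.51 without WT replicate 3, and DESeq2 called it (adjusted p = 0.0377). Exons of Ndrg1 overlap those of Gm17035 and Gm2895 on the other strand.

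Adm encodes adrenomedullin, a secreted vasodilator peptide. It was at 325, 184 and 61.1 CPM in WT, against 402, 353 and 313 CPM in p63alphaKO. WT replicate 1 overlapped with the p63alphaKO libraries, and the WT values spanned a wide range. The log2 fold change of 1.19 (95% interval 0.33 to 2.06, adjusted p = 0.154) was 1.73 without WT replicate 1 (adjusted p = 0.0213) and 0.53 without WT replicate 3 (0.304).

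The values of the other targets had both signs, and none was called. Bnip3l, a receptor for the removal of mitochondria, was at 104, 105 and 85.3 CPM in WT, against 113, 124 and 138 CPM in p63alphaKO, with no overlap (log2 fold change 0.35, 95% interval -0.043 to 0.74, adjusted p = 0.389). Its relative Bnip3 had a value of 0.060 (95% interval -0.34 to 0.46). Kdm3a, a histone demethylase, was at 0.42 (adjusted p = 0.425), and Vegfa, the vascular growth factor, at -0.0070 (95% interval -0.47 to 0.45). Vegfa was at 46.4, 38.4 and 44.4 CPM in WT, against 38.1, 43.1 and 47.4 CPM in p63alphaKO, with the groups intermixed. Ankrd37, an ankyrin repeat gene, was at 17.9, 11.4 and 8.82 CPM in WT, against 14.1, 5.24 and 6.86 CPM in p63alphaKO (-0.54, 95% interval -1.53 to 0.44). The collagen prolyl hydroxylase subunit P4ha1 had a value of 0.069 (95% interval -0.78 to 0.92). P4ha2, the other such subunit, averaged 11.7 ± 3.10 CPM in WT, against 5.31 ± 0.584 CPM in p63alphaKO, lower in every p63alphaKO library, and was too low to be tested. These hydroxylases act on collagen, and the collagen genes Col1a1, Col1a2 and Col3a1 were lower in the same libraries, with log2 fold changes of -4.11, -3.70 and -3.51. A link to the lower P4ha2 was not tested, and P4ha1, at 0.069, was not lower.

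Set side by side, the core enzymes and the HIF feedback and stress targets (Egln1, Egln3 and the 9 targets) had these levels. The mean log2(CPM + 1) over the 14 core enzymes was 6.49, 6.60 and 6.26 in WT replicates 1, 2 and 3 and 6.55, 6.44 and 6.32 in p63alphaKO replicates 1, 2 and 3. Over the 10 tested targets it was 6.28, 6.12 and 5.76 in WT and 6.43, 6.34 and 6.21 in p63alphaKO. Both overlapped between the groups. Targets minus enzymes came to -0.21, -0.49 and -0.50 in WT and to -0.12, -0.10 and -0.11 in p63alphaKO, so that each p63alphaKO library was above each WT library and WT replicate 1 was nearest to them. The group means differed by 0.28. This is a description, since the genes were chosen with results known, and it depends on which targets enter: with P4ha2 included and no minimum level the difference was 0.17, and with a minimum mean of 50 CPM it was 0.51. The median log2 fold change was -0.014 over the core enzymes and 0.21 over the 10 targets, or 0.069 over all 11, against -0.085 over all tested genes.

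**Figure D4:**
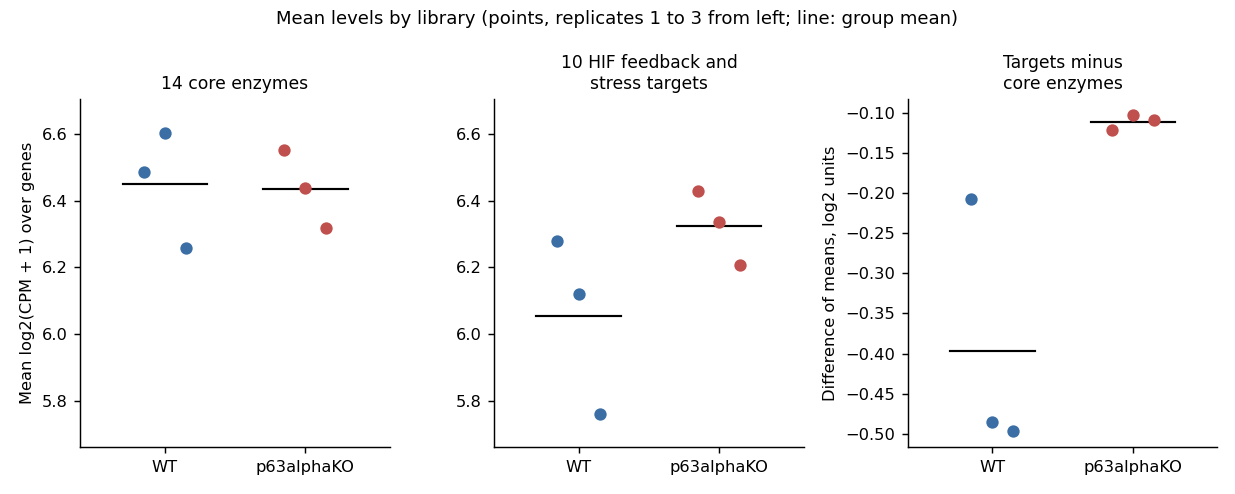
Mean log2(CPM + 1) over the 14 core enzymes, over the 10 tested HIF feedback and stress targets, and the difference of the 2, for each library (points) with the group mean (line). The enzymes overlap between the groups, and the difference is -0.50 to -0.21 in WT and -0.12 to -0.10 in p63alphaKO.

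The WT libraries spread more widely for many of these genes, and WT replicate 3 was often the lowest. Of the 33 tested genes, 19 (57.6%) had their lowest WT value in replicate 3, against 27.9% of all tested genes. The coefficient of variation was larger in WT than in p63alphaKO for 23 (69.7%), against 60.6% of all tested genes. Adm, Ndrg1, Slc2a1 and Slc16a3 all had their lowest value in that library, and their log2 fold changes without it were 0.53, 0.51, 0.62 and 1.09. Pfkfb3 and Egln3 were called without it, at 1.06 (adjusted p = 0.0196) and 0.70 (0.0412).

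**Figure D5:**
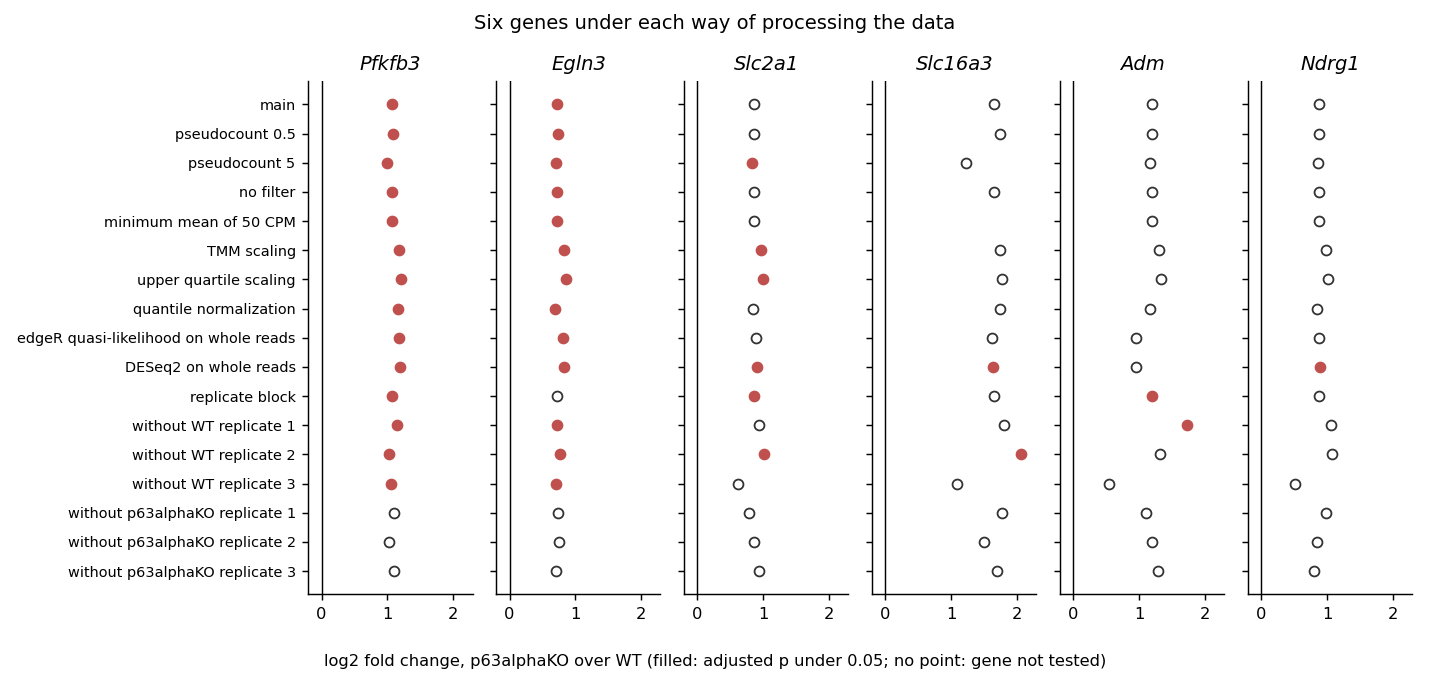
Log2 fold change of 6 genes as first computed (top line) and under 16 other ways of processing the data, filled where the adjusted p was under 0.05. All values are above 0, Pfkfb3 is called in 13 and Egln3 in 12 of the 16, and Slc2a1 in 6.

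Of 104 further genes of the same pathways 52 were tested. Of these limma called 1 higher and 0 lower, against 0.469% and 1.18% of all tested genes. At an unadjusted p under 0.05 in limma, 4 were higher (7.69%, against 6.03% of all tested genes) and 3 lower (5.77%, against 9.59%). Of the 52, edgeR called 0 and DESeq2 called 1 in each direction, against 1.1% and 4.25% of all tested genes in either direction. The gene that limma called was Hmox1, heme oxygenase, which answers to oxidative stress as well as to HIF. It rose from 33.1, 20.8 and 19.2 CPM in WT to 39.5, 63.5 and 70.1 CPM in p63alphaKO (log2 fold change 1.21, SE 0.28, adjusted p = 0.0451). All p63alphaKO libraries lay above all WT libraries, and Hmox1 was not called with edgeR (adjusted p = 0.0676), with no minimum level (0.0697) or without WT replicate 2 (0.0974), WT replicate 3 (0.0914), p63alphaKO replicate 2 (0.156) or p63alphaKO replicate 3 (0.243).

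Among 23 other HIF targets, 14 (60.9%, against 40.2% of all tested genes) had positive and 9 negative values, with a median of 0.074. Pdgfb, a growth factor gene also made by endothelium, stood at -1.28 (adjusted p = 0.0511). DESeq2 called it lower (adjusted p = 0.0122), as did limma with a pseudocount of 5 (0.0453), and edgeR did not (0.0760). The endothelial markers given above were lower in the same libraries, and their part in the values of Pdgfb was not tested. The oxidoreductase gene Ero1l stood at 0.78 (adjusted p = 0.149). In the 10 other HIF regulators the median was -0.14, with Cited2, a HIF-induced inhibitor of HIF, at 0.52 (adjusted p = 0.230) and the hydroxylase Hif1an at -0.44 (0.469). The 5 other glycolysis genes, the 6 genes of pyruvate entry and the 8 glycogen genes had medians of -0.14, -0.21 and -0.29. In these lists the muscle enolase Eno3 stood at -2.12 (adjusted p = 0.257) and the muscle glycogen phosphorylase Pygm at -2.13 (0.348). Eno3 was at 45.8 CPM in WT replicate 2 and at most 7.01 CPM elsewhere, and Pygm at 94.5 CPM there and at most 10.4 CPM elsewhere. The sum of the muscle markers was highest in that library, though Actn2, Myh3 and Myh8 were not. The lactate transporter chaperone Bsg was at -0.26 (adjusted p = 0.520), the pyruvate carrier subunit Mpc2 at -0.69 (0.221), the kinase Pdk3 at -0.28 (0.577), and the sugar nucleotide enzyme Ugp2 at -0.49 (0.326).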

How the data were processed

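Epidermal 3' mRNA libraries from 3 WT and 3 p63alphaKO samples at E18.5 were compared. STAR, HTSeq and mm10 are named in the submitters' processing notes; the sources used here do not give versions, annotation or strand setting, and 2 RNA kits appear in the labels. The authors deposited CPM values: the columns sum to between 999157 and 999401, so every library was scaled to its own total. All values (100%) were whole multiples of 1 read within 0.0055 CPM, which gave totals of 2564407 to 4474764 reads, so 10 CPM is 25.7 to 44.8 reads. Molecular identifiers are not mentioned, so it is unknown whether copies of 1 molecule were counted as separate reads.

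In R 4.3.3, log2(CPM + 1) was fitted by limma 3.58.1 with a mean-variance trend and genotype as the only term, two-sided, for genes averaging 10 CPM or more, with Benjamini-Hochberg adjustment over all of them. edgeR 4.0.16 (quasi-likelihood) and DESeq2 1.42.0 on the recovered reads, 2 pseudocounts, 2 filters, 3 scalings, a replicate block and leaving out each library were the alternatives, with the tested genes kept as they were when a library was left out. The design had assumed normalized values of no stated unit, and its pseudocount and minimum were applied to CPM. The members and lists were chosen with earlier results of these data known, so no p is given over a list. Values in every library are given for called genes, for those with an adjusted p under 0.2, and for the gene of highest level and both ends of the fold change range of each list; other genes given so were added after their values were seen. Of the further pathway genes, called ones and the 2 with the next smallest p in each list are named. Aldoa is listed in 2 rows, 1 of them at 0 throughout, and the other was used. The level of 1 marker gene is not reported here.

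On simulated reads of these depths (7279 genes), 4.08% of genes changed 1.5-fold, 51.0% of those changed 2-fold, 96.0% at 4-fold and 100% at 8-fold were called, and 4.58% of the calls were unchanged genes. Positions and transcript ends are from GENCODE M21 (GRCm38), where all 36 genes were found; copies were searched with blastn 2.17.0, and promoters are RefSeq's (GRCm38.p6).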

Additional observations from a re-analysis of the deposited data

How the results depend on the processing

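With 3 libraries a group and 25.7 to 44.8 reads at 10 CPM, differences under 2-fold were mostly beyond the reach of the test, as the simulation above shows. Over the 16 alternatives, each of the 33 tested genes was compared with its first value, except that 15 of them fell below the minimum of 50 CPM and had 15 alternatives: 451 comparisons had the same direction and call, 11 gained a call, 7 lost one and 44 changed sign. The sign changes were in 12 genes, none of them called under any alternative; the first values of 11 lay between -0.030 and 0.082, and that of Pgk1 was 0.35.

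Pfkfb3 lost its call in 3 alternatives, those without 1 of the p63alphaKO libraries, and Egln3 in these and with the replicate block (0.73, adjusted p = 0.0660). No pairing by replicate number was seen: same-numbered WT and p63alphaKO libraries had correlations of deviations of -0.023, 0.066 and -0.11. WT replicates 1 and 3 correlated best with another number. All these correlations were small, from -0.13 to 0.15. They cannot settle whether libraries shared a litter, which the sources used here do not give. With the block, 127 genes were called in place of 123, Slc2a1 (adjusted p = 0.0404) and Adm (0.0458) among them, and 0 other pathway genes, with Hmox1 at an adjusted p of 0.0660. TMM and upper quartile scaling moved the median of all tested genes from -0.085 to 0.018 and 0.048, and that of the core enzymes from -0.014 to 0.092 and 0.12, so the enzymes' direction depends on the scaling.

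For all genes, 35 calls were higher and 88 lower. The counts were 12 and 24 with a minimum mean of 50 CPM and 152 and 165 with DESeq2, and the higher calls were 69 with upper quartile scaling and 21 with edgeR. With 1 library left out they were 3 to 90 higher and 34 to 96 lower. Members called higher numbered 2, with 5 by DESeq2 and 0 to 4 with 1 library left out. The other pathway genes called numbered 1, with 2 at a pseudocount of 5 and with DESeq2, 0 with edgeR and with a minimum of 50 CPM, and 0 to 1 with 1 library left out. At that minimum the targets' median was 0.54 and their difference from the enzymes 0.51. The cause of these changes was not tested, beyond the fewer genes or libraries that some alternatives use.

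Sign changes under TMM, upper quartile, edgeR and DESeq2 were 0.075, 0.11, 0.062 and 0.076 for Gpi1, 0.093, 0.12, 0.072 and 0.085 for Pdk1, and 0.097, 0.13, 0.081 and 0.098 for Vegfa. Quantile normalization gave -8.0e-06 for Pkm, -0.051 for Ldha, 0.13 for Pdk1 and 0.089 for Vegfa. With 1 library left out the ranges were -0.19 to 0.067 for Gpi1, -0.29 to 0.34 for Gapdh, -0.22 to 0.91 for Pgk1, -0.022 to 0.21 for Pkm, -0.14 to 0.13 for Ldha, -0.18 to 0.35 for Slc16a1, -0.21 to 0.15 for Pdk1, -0.19 to 0.29 for Hif1a, -0.25 to 0.51 for Arnt, -0.085 to 0.073 for Vegfa, -0.044 to 0.14 for Bnip3 and -0.18 to 0.53 for P4ha1.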
